A study of Mus musculus with 4 samples.

Results

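The genes described here are 10 immediate early transcription factor genes, chosen by symbol from the 32932 genes listed in any of the 4 count tables. They comprise the 4 genes of the Fos family (Fos, Fosb, Fosl1 and Fosl2), the 3 genes of the Jun family (Jun, Junb and Jund), and Egr1, Atf3 and Ier2. All 10 were listed in every table. Single-cell RNA-seq (10x Chromium 3′ v3.1) was made from mammary rudiments of WT C57B6 female mice (substrain B6/N in the study's methods) at 3 embryonic stages (E13.5, E14.5 and E15.5, in days) and from mammary glands at birth (P0), with tissue pooled from several embryos and 1 library per stage. Cells carrying CD45, CD31 or Ter119 had been gated out by flow cytometry, and EpCAM+ and EpCAM- cells were both sorted. Tissue was digested for 90 min at 37 °C in every case, at 300 U/ml of both collagenase A and hyaluronidase for the embryonic stages and at 600 and 150 U/ml, respectively, for P0, where red blood cells were also lysed in NH4Cl. Stage can therefore not be told apart from library or digestion, and no undissociated sample was analysed here.

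Immediate early genes are switched on within minutes of a stimulus, without new protein synthesis, by kinases of the ERK, JNK and p38 cascades acting on factors that are already bound to their promoters. Fos and Jun proteins pair through leucine zippers to form AP-1, which binds the sequence TGACTCA. The same genes respond to growth factors in intact tissue and to the stress of enzymatic digestion. In stratified epithelia AP-1 also regulates differentiation genes, and Fosl1 (FRA-1) is known as a slower member of the family that responds to sustained ERK activity.

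Cells with at least 5000 UMIs (unique molecular identifiers, counted transcripts) and at most 6% mitochondrial UMIs were assigned to epithelium or mesenchyme by the larger of the summed UMIs of Epcam, Krt8, Krt18, Krt5 and Krt14 and of Col1a1, Col1a2 and Col3a1. This gave 98 epithelial and 135 mesenchymal cells in the E13.5 library, 45 and 31 in that of E14.5, 532 and 283 in that of E15.5, and 230 and 273 in that of P0, and 3 cells stayed without a tissue. Epithelium here includes skin epithelium, which the study removed from its own mammary clusters. Suprabasal cells were those with at least 10 UMIs of the genes Krt1, Krt10, Krtdap and Sbsn. They made up 2.04%, 8.89%, 32.5% and 1.30% of epithelial cells in the order of the stages. The study names Krtdap as a gene of its luminal-like mammary cluster at E15.5, so these cells may include mammary cells. The share of skin cells, suprabasal or basal, was not measured. At E13.5 the study counted far fewer mammary epithelial cells than the 98 epithelial cells here, and at E14.5 fewer than the 45. A low suprabasal share therefore does not mean few skin cells. Differences between stages in epithelium cannot be read as those of mammary cells alone. Median depth ran from 16438 to 26725 UMIs in the embryonic groups and was 9973 and 8743 UMIs in P0 epithelium and mesenchyme. Markers that had not been used to assign cells followed the assignment. The sum of 6 further epithelial genes, Cdh1 and Trp63 among them, was 32.2- to 288-fold higher in epithelium, and that of 6 further mesenchymal genes, Pdgfra and Twist1 among them, was 27.8- to 255-fold higher in mesenchyme. Summed markers of immune cells stayed at or below 11.5 CPM (the UMIs of a gene scaled to 1e+06 UMIs of its group) in 7 of the 8 groups and reached 119 CPM in P0 mesenchyme, where all 8 markers had UMIs. Haemoglobin genes and Alas2 summed to 10383 CPM there, with 5 of 6 genes detected, and to at most 17.6 CPM in the other groups. These UMIs lay mainly in 4 cells of at least 87.5% haemoglobin and in 3 cells with at least 10 immune UMIs. Nerve and pigment markers summed to at most 13 CPM, and skeletal muscle markers to at most 13.1 CPM outside E13.5 mesenchyme (103 CPM, 5 of 5 markers) and P0 mesenchyme (46.7 CPM, 4 of 5). The 7 cells with haemoglobin or immune UMIs held 4 and 21 UMIs of the 10 genes, respectively, and leaving them out moved no tissue or stage difference by more than 0.029 on the log2 scale.

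The stretch upstream of the transcription start is shown for Fos, Fosb, Jun, Junb and Atf3, inducible members of the Fos, Jun and ATF families for which RefSeq gave an entry, so that the motifs they hold can be compared. RefSeq (GRCm38.p6) had a promoter for 7 of the 10 genes, and none was used for Fosl1, Egr1 and Ier2. Each sequence is the 150 bases before the RefSeq start, 5′ to 3′ on the strand of the gene, and capitals mark TGACG (or its reverse complement CGTCA), the core that ATF and CREB proteins bind, the TATA box TATAAA, and CCAAT. The stretches are chr12:85473740-85473889 (plus strand) for Fos, chr7:19310046-19310195 (minus) for Fosb, chr4:95052223-95052372 (minus) for Jun, chr8:84978749-84978898 (minus) for Junb and chr1:191183334-191183483 (minus) for Atf3.
Fos: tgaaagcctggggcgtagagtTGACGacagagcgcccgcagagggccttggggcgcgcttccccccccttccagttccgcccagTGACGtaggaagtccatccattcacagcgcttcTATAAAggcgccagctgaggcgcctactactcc
Fosb: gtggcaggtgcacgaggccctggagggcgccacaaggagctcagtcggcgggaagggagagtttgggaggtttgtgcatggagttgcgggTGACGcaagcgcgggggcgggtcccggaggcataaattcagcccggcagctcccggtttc
Jun: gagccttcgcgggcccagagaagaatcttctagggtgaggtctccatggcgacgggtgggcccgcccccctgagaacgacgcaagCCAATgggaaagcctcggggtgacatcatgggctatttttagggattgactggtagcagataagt
Junb: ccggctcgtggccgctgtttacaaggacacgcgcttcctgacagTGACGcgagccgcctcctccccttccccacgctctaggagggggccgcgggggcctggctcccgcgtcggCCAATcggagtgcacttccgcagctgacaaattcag
Atf3: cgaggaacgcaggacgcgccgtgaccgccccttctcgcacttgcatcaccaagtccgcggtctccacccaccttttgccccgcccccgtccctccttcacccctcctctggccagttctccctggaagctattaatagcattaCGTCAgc

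TGACG was found in 4 of the 7 promoters (Fos, Fosb, Junb and Atf3), against 13.3% of 32851 RefSeq promoters searched over the same length on both strands. In Fos it began 129 and 66 bases upstream, and TATAAA, present in 7.57% of promoters, began 33 bases upstream. CCAAT was found for Jun and Junb and in 24.5% of all promoters. None of the 7 held TGACTCA (2.84% of promoters), the full palindrome TGACGTCA (1.36%) or the CArG box bound by serum response factor (0.916%) within these 150 bases. The RefSeq starts of Fosl2, Jund and Atf3 lie away from the outermost start that the gene annotation gives. In that annotation (mm10) Fos spans chromosome 12 from 85473890 to 85477273 and has 4 exons, like Fosb, Fosl1, Fosl2 and Atf3, whereas Jun, Junb, Jund and Ier2 have 1 exon. Fosl1, Jun, Junb, Jund and Atf3 overlap a gene on the other strand.

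Fos, the founding AP-1 gene, had its highest level in P0 mesenchyme and was lower in epithelium than in mesenchyme at E15.5 and P0. Its level in epithelium was 164, 348, 98.4 and 135 CPM in the order of the stages. In mesenchyme it was 262, 368, 381 and 845 CPM. The E15.5 mesenchyme, the E14.5 mesenchyme and the E14.5 epithelium followed P0 mesenchyme in the order of levels. Neighbours among these groups lay within counting error of each other. Mesenchyme exceeded epithelium 1.60-fold at E13.5 (exact 95% interval 1.40 to 1.83), 3.87-fold at E15.5 (3.63 to 4.13) and 6.24-fold at P0 (5.57 to 7.0). At E14.5 the interval of 0.910 to 1.22 held equality.

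Fosb, a paralog of Fos, differed by tissue mainly at P0. It lay between 40.1 and 71.0 CPM in the epithelium of the 4 stages and at 58.1, 66.8 and 84.4 CPM in embryonic mesenchyme. P0 mesenchyme stood apart with 743 CPM (710 to 778), 10.9-fold above the epithelium of the same library (9.36 to 12.8) and 8.8-fold above E15.5 mesenchyme (8.03 to 9.66). The other 7 groups formed a series in which no neighbours differed beyond counting error, although groups further apart in it did. Mesenchyme was 1.67-fold above epithelium at E14.5 (1.12 to 2.49) and 1.72-fold at E15.5 (1.54 to 1.92), and the tissues were not apart at E13.5.

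Fosl1 had a higher level in epithelium than in mesenchyme at every stage, and its level in both tissues was far higher at E15.5 and P0 than in the earlier libraries. The E13.5 and E14.5 values rest on few UMIs, and when every cell was thinned to 5000 UMIs, 1 and 4 UMIs were left in epithelium and 0 in mesenchyme, too few for a ratio. Epithelium held 15 UMIs at E13.5 (7.35 CPM, 4.11 to 12.1), 18 UMIs at E14.5 (14.1 CPM), 2189 UMIs at E15.5 (153 CPM, 147 to 160) and 1026 UMIs at P0 (392 CPM, 369 to 417). Mesenchyme held 3 UMIs at E13.5 and 0 of 838030 at E14.5, which at 3 counts allows up to 3.58 CPM. It held 71 UMIs at E15.5 (9.78 CPM) and 242 UMIs at P0 (96.5 CPM). The tissue ratio was 15.7-fold at E15.5 (12.4 to 20.1) and 4.07-fold at P0 (3.53 to 4.70). At E13.5 it was 5.90-fold with an interval of 1.67 to 31.8, and at E14.5 it was at least 3.95-fold against a floor of 3 counts, with an exact lower limit of 2.89. From E13.5 to E15.5 the epithelial level was 20.8-fold higher (12.6 to 37.3), and from E15.5 to P0 2.56-fold (2.38 to 2.76). Without the suprabasal cells the epithelial levels were 7.49, 9.25, 146 and 395 CPM in the order of the stages. The part of skin in the stage differences was not tested. In mesenchyme the level was 9.87-fold higher at P0 than at E15.5 (7.55 to 13). Further epithelial markers were 36.6-fold higher in epithelium at E15.5 and 32.2-fold at P0, a larger ratio than that of Fosl1 in both libraries.

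The share of cells with a Fosl1 UMI was also higher in epithelium. It was 88.0% in E15.5 epithelium and 13.1% in E15.5 mesenchyme at median depths of 24695.5 and 24376 UMIs, and 87.0% and 41.0% at P0. With every cell thinned at random to 5000 UMIs, these shares were 46.8% and 4.59% at E15.5 and 77.4% and 31.1% at P0, so that the epithelium of P0 exceeded that of E15.5 after thinning, as in CPM, but not before. The median thinned epithelial cell at P0 had 2 Fosl1 UMIs.

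Fosl2 (FRA-2) was also higher in epithelium at each stage, by a margin that was widest at E14.5. Epithelium held 128, 192, 142 and 204 CPM from E13.5 to P0 and mesenchyme 49, 56.1, 112 and 110 CPM. The lowest epithelial level (E13.5) and the highest mesenchymal one (E15.5) were within counting error of each other (1.15-fold, 0.993 to 1.32). The ratio was 2.62-fold at E13.5 (2.10 to 3.28), 3.43-fold at E14.5 (2.50 to 4.79), 1.27-fold at E15.5 (1.17 to 1.38) and 1.86-fold at P0 (1.60 to 2.15). Mesenchyme at E15.5 was 2.29-fold above that at E13.5 (1.88 to 2.80), and the epithelial levels at those stages did not differ beyond counting error.

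**Figure D1:**
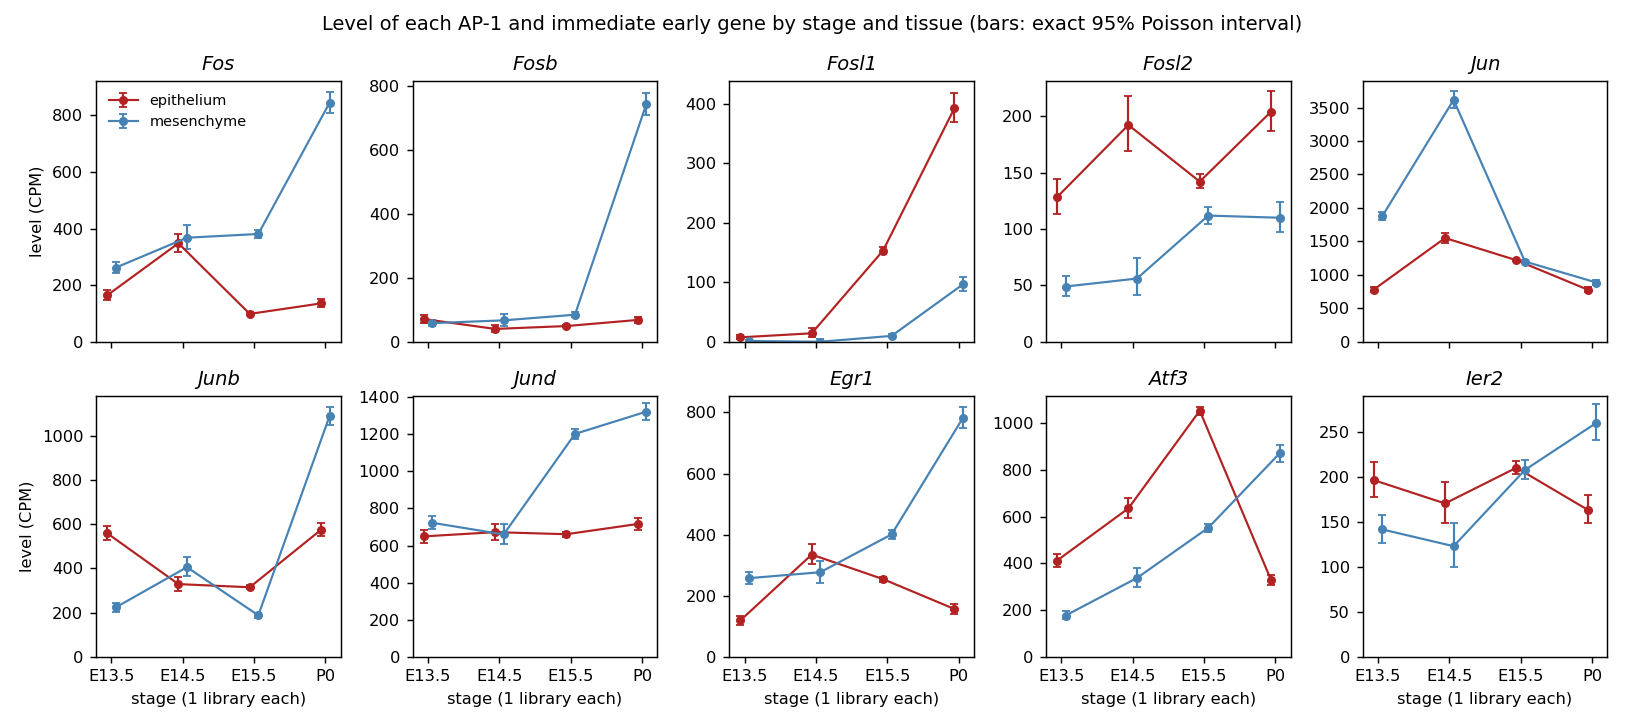
Level of each of the 10 genes in CPM (y axis, from 0) by stage (x axis, 1 library each) in epithelium (red) and mesenchyme (blue), with bars for the exact 95% Poisson interval. Fos, Fosb, Junb and Egr1 peak in P0 mesenchyme, Fosl1 and Fosl2 stay higher in epithelium, and Jun peaks in E14.5 mesenchyme.

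Jun, the principal partner of Fos in AP-1, was highest in the mesenchyme of the earlier embryos. Mesenchyme held 1876, 3616, 1198 and 885 CPM from E13.5 to P0, and epithelium 779, 1550, 1218 and 778 CPM. The mesenchymal level was 2.41-fold higher at E13.5 (2.28 to 2.55) and 2.33-fold higher at E14.5 (2.20 to 2.47). At E15.5 the tissues did not differ beyond counting error (epithelium 1.02-fold, 0.991 to 1.04), and at P0 mesenchyme was 1.14-fold higher (1.07 to 1.21). The P0 direction turned, to a log2 ratio of 0.29 in favour of epithelium, when the 5% of cells with most UMIs of the 10 genes were left out.

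The tissue with more Junb was not the same at every stage. Epithelium held 560, 329, 315 and 575 CPM and mesenchyme 223, 406, 188 and 1091 CPM. Epithelium was 2.51-fold higher at E13.5 (2.26 to 2.78) and 1.68-fold at E15.5 (1.58 to 1.78), while mesenchyme was 1.23-fold higher at E14.5 (1.06 to 1.43) and 1.90-fold at P0 (1.78 to 2.02). The E14.5 log2 ratio of -0.30 shrank to -0.05 with a mitochondrial maximum of 10%. It was -0.08 with equal weight per cell and -0.01 in thinned cells. P0 mesenchyme exceeded E15.5 mesenchyme 5.81-fold (5.44 to 6.21).

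Jund, which is less inducible than the other Jun genes, was the steadiest member in epithelium, with 649, 672, 661 and 716 CPM. Mesenchyme held 723 and 660 CPM at E13.5 and E14.5 and 1202 and 1322 CPM at E15.5 and P0. It was 1.82-fold above epithelium at E15.5 (1.77 to 1.87) and 1.85-fold at P0 (1.74 to 1.95). Among the 6 lower groups, all 4 of epithelium included, neighbours in the order of levels lay within counting error of each other.

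Egr1, a zinc finger factor induced through serum response elements, was higher in mesenchyme at 3 of 4 stages. Epithelium held 119, 335, 254 and 156 CPM and mesenchyme 257, 277, 401 and 782 CPM. Mesenchyme was 2.16-fold higher at E13.5 (1.86 to 2.52), 1.58-fold at E15.5 (1.5 to 1.66) and 5.0-fold at P0 (4.49 to 5.58), and epithelium was 1.21-fold higher at E14.5 (1.03 to 1.42).

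Atf3, a stress-induced member of the ATF family that dimerises with Jun proteins, was higher in the epithelium of the 3 embryonic libraries and in the mesenchyme of the P0 library. Epithelium held 412, 636, 1055 and 329 CPM and mesenchyme 177, 338, 553 and 872 CPM. The ratio of epithelium to mesenchyme was 2.33-fold at E13.5 (2.07 to 2.63), 1.88-fold at E14.5 (1.64 to 2.17) and 1.91-fold at E15.5 (1.84 to 1.98), whereas at P0 mesenchyme was 2.65-fold higher (2.45 to 2.88). In epithelium the level was 2.56-fold higher at E15.5 than at E13.5 (2.39 to 2.74) and 3.21-fold lower at P0 than at E15.5 (3.00 to 3.44). Mesenchyme at E15.5 was 3.13-fold above E13.5 (2.83 to 3.46).

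Ier2, a nuclear immediate early protein, had the narrowest range in CPM. Its 8 levels ran from 123 CPM in E14.5 mesenchyme to 260 CPM in P0 mesenchyme, and apart from that highest group no neighbours in the order differed beyond counting error. Epithelium was 1.39-fold higher at E13.5 (1.2 to 1.61) and at E14.5 (1.09 to 1.77), the tissues were not apart at E15.5, and mesenchyme was 1.59-fold higher at P0 (1.41 to 1.80).

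**Figure D2:**
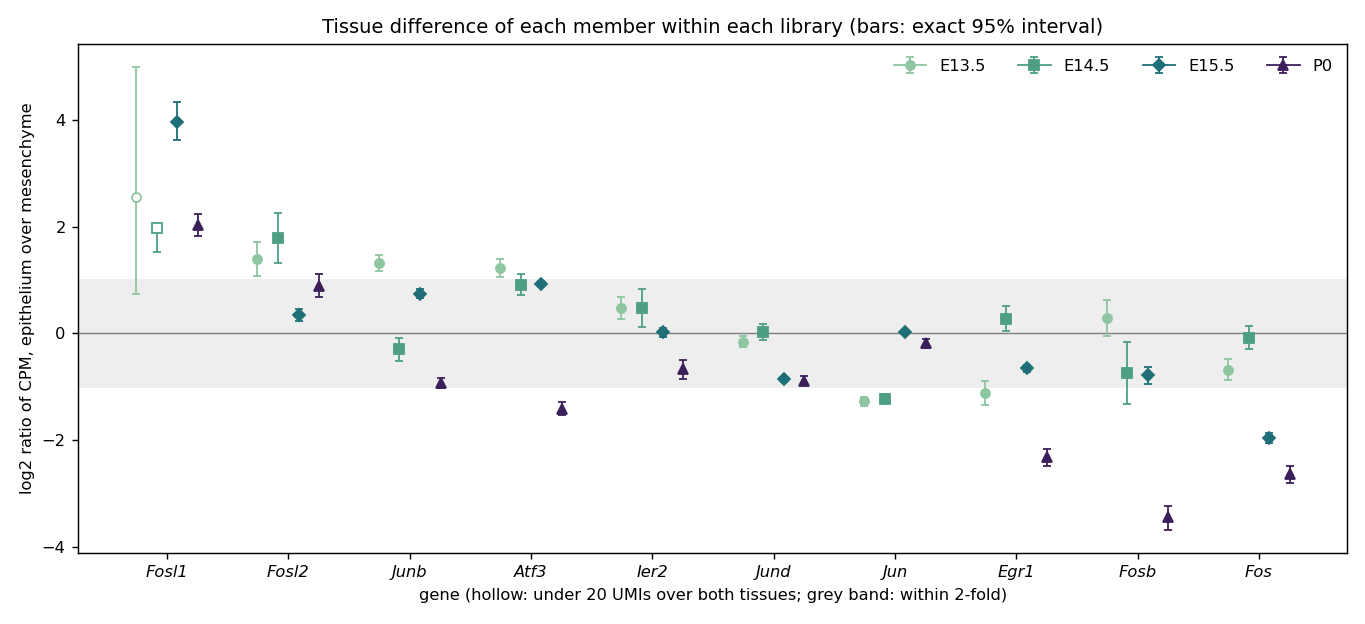
Log2 ratio of CPM in epithelium over mesenchyme (y axis) for each gene (x axis) within each of the 4 libraries, with exact 95% intervals. Grey marks the range within 2-fold, hollow points have under 20 UMIs over both tissues, and the hollow square of Fosl1 at E14.5 is a lower bound; Fosl2 lies above 0 at every stage, as does Fosl1, from few UMIs at E13.5 and E14.5, and the spread of the other genes is widest at P0.

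Read as a group, most members tested were within 2-fold between tissues at E14.5 (7 of 9) and E15.5 (8 of 10), and 4 of 9 were at E13.5 and 5 of 10 at P0. A gene was called when its levels differed at least 2-fold in CPM and it had at least 20 UMIs over both groups. At E13.5, 3 of 9 members tested were called higher in epithelium (Fosl2, Junb and Atf3) and 2 lower (Jun and Egr1), beside 10.3% and 21.9% of the 10630 genes tested. Relative to the median gene, Egr1 fell short of 2-fold there (log2 -0.94). At E14.5, Fosl2 was higher and Jun lower among 9 members, beside 14.7% and 17.5% of genes. Of 10 members at E15.5, Fosl1 was higher and Fos lower, beside 16.8% and 22.5%. At P0, Fosl1 was higher and 4 members were lower (Fos, Fosb, Egr1 and Atf3), beside 24.7% and 18.9%. The median log2 ratio of the members was 0.29, 0.03, 0.02 and -0.90 at the 4 stages, and that of all genes tested was -0.18, 0.02, -0.10 and 0.30. Jund and Ier2 stayed within 2-fold at all 4 stages, as did 41.6% of the 8390 genes tested at every stage. No member was called in the same direction at every stage, as 3.59% of these genes were in epithelium and 6.2% in mesenchyme. Fosl1 had too few UMIs to be tested at E13.5 and E14.5 and so could not be called at every stage, although its ratios there lay past 2-fold towards epithelium.

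Col1a1, Col1a2 and Col3a1 alone summed to 74311 CPM in P0 mesenchyme and to 15067 CPM in E15.5 mesenchyme. The median gene was shifted by 0.30 on the log2 scale between tissues at P0 and by -0.42 between P0 and E15.5 mesenchyme. The part of collagen in these shifts was not tested. Relative to the median gene, the P0 ratio of epithelium to mesenchyme was -3.75 for Fosb, -2.94 for Fos, -2.62 for Egr1, -1.71 for Atf3, -1.23 for Junb, -1.19 for Jund and 1.72 for Fosl1 on the log2 scale, so that 7 members passed 2-fold in place of 5. On that scale 18% of all genes were called higher and 23.1% lower.

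From E13.5 to E15.5 and from E15.5 to P0, mesenchyme had members at least 2-fold higher in the later library and none 2-fold lower. Other pairs of stages were not compared. Mesenchymal Jun stood at 1876 and 3616 CPM at E13.5 and E14.5 against 885 CPM at P0, and mesenchymal Junb at 406 CPM at E14.5 against 188 CPM at E15.5. From E15.5 to P0, Fos (2.22-fold, 2.10 to 2.35), Fosb, Fosl1 and Junb were at least 2-fold higher in mesenchyme and none lower, beside 14.3% of 11774 genes higher and 28.2% lower. Relative to the median gene, Egr1 and Atf3 passed as well (log2 1.38 and 1.07), and 20.3% of genes were called higher and 18.1% lower. In epithelium Fosl1 was higher and Atf3 lower at P0, beside 15% and 18.5% of 12247 genes. From E13.5 to E15.5, Fosl1, Egr1 (2.14-fold, 1.87 to 2.44) and Atf3 were higher in epithelium, beside 14.9% of genes higher and 14.8% lower. Over the same interval Fosl1, Fosl2 and Atf3 were higher in mesenchyme, beside 8.16% and 13.8%. The Fosl1 value there was 7.85-fold with an interval of 2.58 to 38.97, from 71 and 3 UMIs.

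Heat shock genes encode chaperones, some of which are induced by warm enzymatic digestion. The list was set beside the members because its genes are linked to stress and are not immediate early genes. Its sum was not split into inducible and other chaperones. The 13 genes of the list summed to 12331, 14801, 23421 and 10341 CPM in epithelium and to 13062, 15262, 19479 and 9458 CPM in mesenchyme. The 10 members summed to 3086, 4287, 4156 and 3518 CPM in epithelium and to 3768, 5909, 4337 and 7008 CPM in mesenchyme. The lists thus went opposite ways in mesenchyme from E15.5 to P0. There 9 of 13 heat shock genes were at least 2-fold lower and 1 was higher, while 4 of 10 members were higher. Of all genes, 28.2% were lower and 14.3% higher. Between tissues, heat shock genes were within 2-fold in 10, 11, 11 and 8 of 13 cases at the 4 stages. At each embryonic stage 1 was higher in epithelium, and 2, 1 and 1 were lower. All genes had 10.3% to 16.8% higher and 17.5% to 22.5% lower at these stages. At P0, 1 was higher and 4 were lower, beside 24.7% and 18.9% of all genes. The exceptions at P0 included Hspb1, a small heat shock protein of epithelia, 11.4-fold higher in epithelium (10.2 to 12.8), and Hspa1a, an inducible HSP70, 6.26-fold higher in mesenchyme (4.83 to 8.21). The part of digestion in the levels of the members was not tested.

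Other immediate early genes, 29 measured, summed to 3634, 4854, 4777 and 7967 CPM in epithelium and to 4360, 6055, 4819 and 9653 CPM in mesenchyme. At P0, 14 of 28 tested were at least 2-fold lower in epithelium than in mesenchyme and 3 higher, beside 18.9% and 24.7% of all genes. At E15.5, 8 of 29 were lower and 5 higher, near the 22.5% and 16.8% of all genes. At E14.5, 6 of 23 were lower and 10 higher, beside 17.5% and 14.7%, and at E13.5, 9 of 25 were lower and 5 higher, beside 21.9% and 10.3%. From E15.5 to P0, 16 of 29 were higher in mesenchyme and 12 of 28 in epithelium, beside 14.3% and 15% of all genes, with 2 and 0 lower. Klf2, a factor known from endothelium, had 180 CPM in E15.5 mesenchyme and was 28.6-fold above epithelium (23.1 to 35.8). Endothelial markers summed to 15.0 CPM in that mesenchyme, with 4 of 6 detected. Plk2, a stress-induced kinase, was 7.74-fold higher in epithelium at P0 (6.28 to 9.63), and Srf, the serum response factor itself, 6.60-fold (3.95 to 11.7). The 14 regulators that act on the Fos promoter include Srf, the Elk factors, Creb1 and the MAP kinases. Of these, 7, 11, 14 and 11 were within 2-fold between tissues in the order of the stages. Higher and lower in epithelium were 2 and 5 at E13.5, 1 and 2 at E14.5, and 2 and 1 at P0. All genes had 10.3% higher and 21.9% lower at E13.5 and 14.7% and 17.5% at E14.5. The shares were 16.8% and 22.5% at E15.5 and 24.7% and 18.9% at P0.

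EGF receptor ligands and epithelial wound genes were mainly higher in epithelium, and their sum was highest at P0. Several were listed as genes of epithelium, and Krt17 is also among the further epithelial markers. Their excess in epithelium is therefore no independent result, and a link to Fosl1 was not tested. This list of 16 genes summed to 982, 492, 2249 and 4510 CPM in epithelium and to 93.0, 105, 410 and 1149 CPM in mesenchyme. At E15.5, 13 of 16 were at least 2-fold higher in epithelium and none lower, and at P0 13 were higher and 2 lower, beside 16.8% and 24.7% of all genes higher. Areg, an EGF receptor ligand of mammary epithelium, had 1110 CPM in P0 epithelium and was 75.3-fold above mesenchyme (54.5 to 107). Epgn, another ligand, was 63.4-fold higher in epithelium at E15.5 (32.1 to 147), and the wound keratin Krt6a 83.4-fold at P0 (32.3 to 308). ERK pathway feedback genes were higher in epithelium for 5 of 13 at E13.5, with none lower, and for 7 of 13 at E14.5, with 2 lower. They were higher for 6 of 13 at E15.5, with 3 lower, and for 4 of 12 at P0, with none lower. All genes had 10.3% higher and 21.9% lower at E13.5 and 14.7% and 17.5% at E14.5. The shares were 16.8% and 22.5% at E15.5 and 24.7% and 18.9% at P0. The counts of 2 and 3 of 13 lower and 4 of 12 higher lie near these shares. Dusp6, an ERK phosphatase, was 19.1-fold higher in P0 epithelium (13.9 to 27.1) and Dusp4 13.7-fold (6.06 to 38.5), while Spry4 was 7.42-fold higher in E15.5 mesenchyme (5.44 to 10.3).

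Of 14 AP-1 and ATF partner genes, 13 were tested at E15.5 and 12 at P0. In both libraries 3 were at least 2-fold lower in epithelium and none higher, a share of lower genes near the 22.5% and 18.9% of all genes. Batf3 and Jdp2, which encode small dimerisation partners, were 23.6-fold (11.5 to 56.3) and 9.88-fold (8.01 to 12.3) higher in E15.5 mesenchyme, and Maf was 7.03-fold higher in P0 mesenchyme (4.91 to 10.3).

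**Figure D3:**
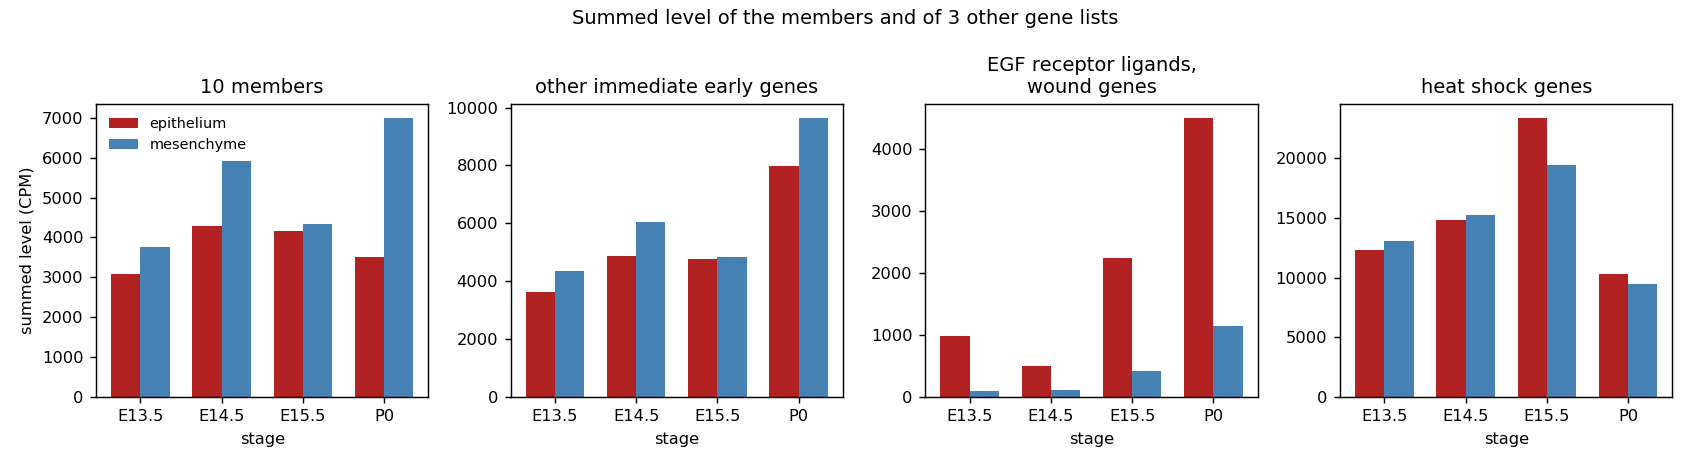
Summed level in CPM (y axis, bars from 0) of the 10 members, of 29 other immediate early genes, of 16 EGF receptor ligands and wound genes and of 13 heat shock genes, by stage (x axis) in epithelium (red) and mesenchyme (blue). The members and other immediate early genes are highest in P0 mesenchyme, the ligand and wound genes in P0 epithelium, and heat shock genes in E15.5 epithelium.

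Within a tissue, the members differed in how evenly cells carried them. In thinned cells of P0 epithelium, the tenth of cells with most UMIs of a gene held 84.7% of all Fos UMIs, 75.8% for Fosb, 61.9% for Egr1 and 52.2% for Atf3. The same measure was 39.6% for Ier2, 29.4% for Fosl1, 28.7% for Junb and 25.9% for Jund. Fos and Ier2 had similar numbers of UMIs there (354 and 427 before thinning). In P0 mesenchyme the share was 64.4% for Fos, 64.5% for Egr1 and 61.9% for Jun, against 28.4% for Jund. One cell had 256 UMIs of the 10 genes among 5000, and the median cell 24. After thinning, the median cell carried between 4 and 6 of the 10 members in each of the 8 groups, and 30.4% of P0 mesenchymal cells carried at least 8.

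Fos, Jun and Egr1 varied together from cell to cell in the mesenchyme of E15.5 and P0, and were less correlated in epithelium. Pearson correlations were taken over thinned cells on log2(UMIs + 1) and describe cells that share a library. Low counts lower such an r. After thinning, P0 epithelium held 170 Fos, 189 Egr1 and 925 Jun UMIs, against 1180, 1088 and 1230 in P0 mesenchyme. At E15.5, Fos had 297 UMIs in 532 epithelial cells and 647 in 283 mesenchymal cells. The part of these counts in the tissue difference in r was not tested. In P0 mesenchyme (273 cells) r was 0.76 for Fos and Jun, 0.71 for Fos and Egr1 and 0.69 for Jun and Egr1. In E15.5 mesenchyme (283 cells) it was 0.62 for Fos and Egr1, 0.51 for Fos and Jun and 0.38 for Jun and Egr1. In the epithelium of these libraries the same 3 pairs had r between 0.02 (Jun and Egr1 at P0) and 0.35 (Fos and Egr1 at P0), and the closest pairs were Fos and Fosb at P0 (0.50, 230 cells) and Jun and Atf3 at E15.5 (0.34, 532 cells). In the smaller E13.5 and E14.5 groups the 3 pairs had r between -0.003 (Fos and Jun in E14.5 epithelium, 45 cells) and 0.35 (Fos and Egr1 in E13.5 mesenchyme, 135 cells). Fosl1 and Fosl2 had low r with the other members at E15.5 and P0. The mean r of Fosl1 with the other 9 members was 0.03 in E15.5 epithelium, 0.01 in E15.5 mesenchyme, -0.03 in P0 epithelium and -0.16 in P0 mesenchyme, and that of Fosl2 was 0.01, 0.02, -0.002 and 0.09. For Fos the corresponding values were 0.12, 0.29, 0.19 and 0.38. Junb had 0.06, 0.22, 0.09 and 0.27 and Jund 0.05, 0.10, 0.08 and 0.22, so that low values in epithelium were not limited to Fosl1 and Fosl2. In E15.5 mesenchyme the Fosl1 value rests on 16 UMIs after thinning. In E13.5 epithelium (98 cells) the mean r was 0.20 for Fosl1, from 1 UMI after thinning, 0.15 for Fosl2 and 0.12 for Fos, and in E14.5 epithelium it was 0.15 for Fosl2 and -0.01 for Fos.

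**Figure D4:**
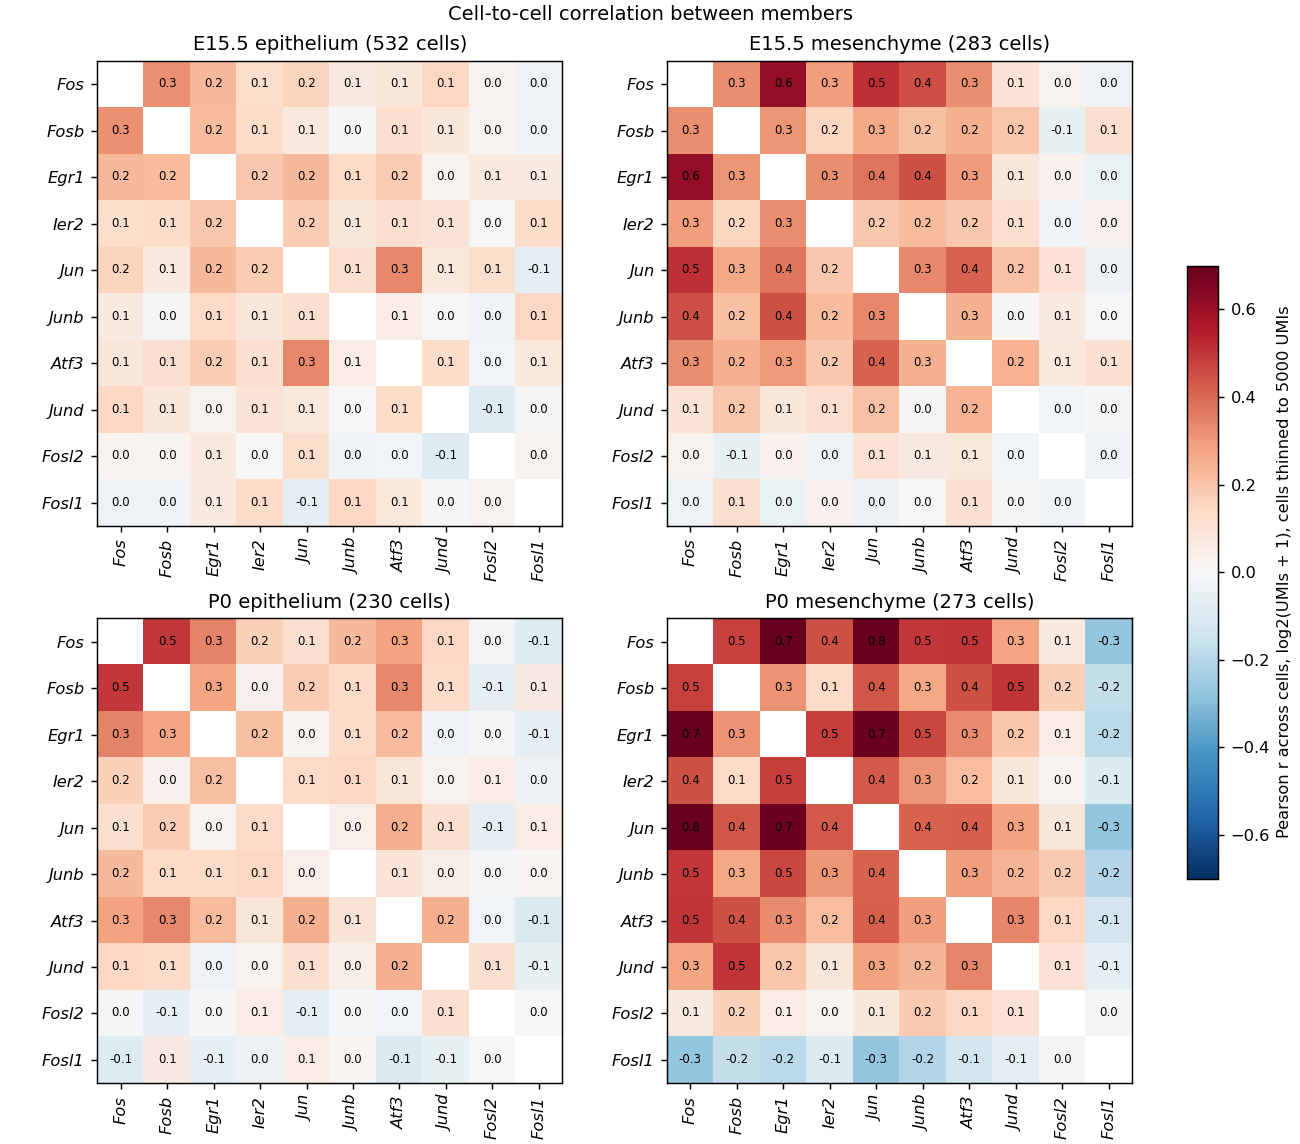
Pearson r across cells between each pair of the 10 genes (rows and columns) in E15.5 and P0 epithelium and mesenchyme, on log2(UMIs + 1) of cells thinned to 5000 UMIs, with red for positive and blue for negative r. Fos, Jun and Egr1 form the strongest block in P0 mesenchyme, and the rows of Fosl2 and Fosl1 stay near 0 or, for Fosl1 in P0 mesenchyme, below it.

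The summed members followed other immediate early genes across cells in every group, with r from 0.41 in E15.5 epithelium to 0.85 in E14.5 epithelium, and followed heat shock genes less closely, with r from 0.17 in E15.5 epithelium to 0.67 in E14.5 mesenchyme (31 cells). Their r with the mitochondrial share lay between -0.18 and 0.28, and with the log of the cell's UMIs between -0.20 and 0.25. Among the 10 genes outside the set with the highest mean r to the summed members over the epithelium and mesenchyme of the E15.5 and P0 libraries were Zfp36l1 (0.33), Btg2 (0.33), Ppp1r15a (0.30), Klf6 (0.29), Zfp36 (0.27), Klf4 (0.27), Hspa1a (0.26), Ccnl1 (0.25) and Hspa1b (0.25). The median of 3191 genes ranked was 0.005 and their 99th percentile 0.17. In epithelium alone Csrnp1, Palmd, Ifrd1 and Dusp8 entered the first 10, and in mesenchyme alone Nr4a1, Klf2, Rhob, Adamts1 and Dusp1 did.

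Subsets set by marker sums within a tissue were compared for the members. In each comparison at most 1 of 10 members passed 2-fold in either direction, a share near or below that of all genes. In E15.5 epithelium, 173 cells with at least 10 UMIs of the suprabasal genes Krt1, Krt10, Krtdap and Sbsn had Atf3 at 571 CPM against 1363 CPM in the other 359 cells, a 2.39-fold lower level (2.29 to 2.48), beside 5.82% of genes at least 2-fold lower. The other 9 members were within 2-fold, Fosl1 with 164 against 146 CPM. In P0 epithelium, 18 cells with at least 10 UMIs of the contractile genes Acta2, Myh11, Mylk and Cnn1 had Egr1 at 389 CPM against 138 CPM in 212 other cells (2.83-fold, 2.17 to 3.64) and Jund at 271 against 752 CPM (2.77-fold lower, 2.11 to 3.72). In that comparison 8.01% of genes were called higher and 20.4% lower. Fosl1 was at 450.5 and 388 CPM and not apart. In P0 mesenchyme, 132 cells with at least 2 UMIs of Pi16 and Dpp4, markers of a fibroblast type found in many tissues, had Atf3 at 1128 CPM against 539 CPM in 117 cells without (2.09-fold, 1.89 to 2.32), beside 8.09% of genes higher. The remaining members were within 2-fold there. Cells at most 2 UMIs from the limit numbered 43, 1 and 181 in these comparisons.

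Proliferation genes, 7 in the list, summed to 1949, 1081, 878 and 762 CPM in epithelium and to 2125, 3327, 1894 and 138 CPM in mesenchyme. Cycling cells, with at least 2 UMIs of Top2a and Mki67, held the members tested within 2-fold of non-cycling cells in both tissues at E13.5 and E15.5. Most genes were within 2-fold there too, with 5.28% to 7.3% of them higher and 2.47% to 4.1% lower. At P0, 23 cycling epithelial cells had lower Fos (25 against 158 CPM, from 11 and 312 UMIs) and Fosb (20.5 against 83.2 CPM), beside 12.4% of genes lower. In P0 mesenchyme, 7 cycling cells were compared with 252 others. Pooled Fos was 2.25-fold (1.86 to 2.70) and Fosb 2.70-fold (2.24 to 3.24) higher, beside 12.9% of genes higher, and Fosl2 was lower, from 2 UMIs. These intervals leave out the spread between cells. Over all P0 mesenchymal cells Fos had a mean of 871 CPM and a standard deviation of 1802 CPM. In P0 epithelium these were 152 and 704 CPM. Whether a few cells carry the P0 differences was not tested, and no direction is drawn from 7 cells. In E14.5 epithelium, 11 cycling cells had 6 of 9 members tested at least 2-fold lower than 25 others, Atf3 with 238 against 940 CPM (3.95-fold, 3.20 to 4.91), beside 8.8% of genes. In E14.5 mesenchyme, 12 cycling cells had Fosl2 at 75.7 against 18.2 CPM, from 32 and 6 UMIs, and Atf3 at 187 against 467 CPM in 16 others, beside 12.1% of genes higher and 7.27% lower.

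Barcodes with at least 5000 UMIs that exceeded the mitochondrial limit were compared with the kept cells. No member passed 2-fold at E15.5 or in E14.5 epithelium, and 1 passed in P0 epithelium and in E13.5 mesenchyme. More passed in E13.5 epithelium and in the smallest groups, where larger shares of all genes passed as well. The 30 barcodes of E14.5 epithelium had 3.46% of genes higher and 6.14% lower. In E15.5 epithelium, 231 such barcodes had no member past 2-fold, Fos with 143 against 98.4 CPM and Fosb with 76.0 against 49 CPM being furthest. Of all genes, 1.94% were higher and 3.59% lower. In E15.5 mesenchyme none passed among 40 barcodes, beside 7.47% of genes higher and 8.43% lower, and Atf3 was at 304 against 553 CPM. In P0 epithelium Fos alone passed among 37, with 66.5 against 135 CPM from 19 UMIs, beside 8.77% of genes lower. At E13.5, Jun was 2.44-fold higher (2.10 to 2.83) in 14 such epithelial barcodes and 2.07-fold (1.79 to 2.39) in 8 mesenchymal ones, beside 24.2% and 22.2% of genes higher. In the epithelial ones Fosl2 was 2.22-fold higher, Junb 2.77-fold lower and Atf3 2.36-fold lower, beside 12.3% of genes lower. In 4 barcodes of E14.5 mesenchyme, with a median mitochondrial share of 45.9%, Fosb was 9.91-fold higher (6.43 to 15.1). There 2 further members were higher and 2 lower, beside 12.1% and 26.4% of genes, and the lower count lies near that share. In 3 barcodes of P0 mesenchyme 4 members were lower, beside 3.88% of genes.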

How the data were processed

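For each stage the authors deposited 1 table of counts, with UMIs per gene and barcode, not normalized and made with 10x Cell Ranger on mm10. The submitters' processing notes name version 6.0.0 for all tables, and the header of the E15.5 table names 3.1.0. Genes were matched between tables by Ensembl identifier. Kept cells held 4506046, 2111282, 21559040 and 5122125 UMIs in the order of the stages, and no doublets were called beyond those the authors' sort had gated out. UMIs were summed by stage and tissue and divided by the group's total (CPM), with exact 95% Poisson intervals for levels and exact conditional binomial intervals for ratios (Python 3.11.15, numpy 2.4.6, scipy 1.17.1, pandas 2.3.3). With 1 library per stage and cells that are not replicates, no test was made. Intervals cover counting error only, and a count of 0 was set to a floor of 3 for ratios. The intervals were run on simulated counts that held counting error alone, so that run does not show how they perform with spread between cells. The members, the gene lists and the rule for named genes (all members, the 2 to 4 genes of each list with the largest tissue ratio at E15.5 or P0, and the 10 genes most correlated with the members) were chosen with earlier results of these data known. Of the lists, proliferation, nerve and pigment, and skeletal muscle genes served to check the cells. No barcode was kept in more than 1 library. Alternatives were UMI minimums of 3000 and 10000, a mitochondrial maximum of 10%, a stricter tissue call, equal weight per cell, thinned cells, scaling by the median ratio, no minimum per gene, and cells without the top 5%, and 3 more were chosen after seeing the data. One gene among those most like the members is not reported here.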

Additional observations from a re-analysis of the deposited data

Results flagged for a closer look

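For 4 members the tissue with the higher level, with intervals that left out equality, was not the same in every library. The log2 ratio of epithelium over mesenchyme differed by 2.25 for Junb between E13.5 (1.33) and P0 (-0.92), by 2.60 for Egr1 between E14.5 (0.27) and P0 (-2.32), by 2.63 for Atf3 between E13.5 (1.22) and P0 (-1.41) and by 1.14 for Ier2 between E13.5 (0.47) and P0 (-0.67). These differences were not tested, since each stage has 1 library.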

How the results depend on the processing

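Under all 12 alternatives the 8 counts of members past 2-fold stayed within 1.5 times the reported count. No called ratio changed sign. Which members were called did change: between tissues, median scaling took Egr1 at E13.5 (log2 -0.94) and added Atf3 at E15.5 and Junb and Jund at P0, thinning added Fosb at E15.5 and Fosl2 at P0, a mitochondrial maximum of 10% added Fosb at E14.5, leaving out the top 5% added Atf3 there, and a UMI minimum of 10000, equal weights, thinning or leaving out the top 5% of cells took Fos from the mesenchymal calls between E15.5 and P0. Of 958 single ratios under an alternative, 798 stayed inside their counting interval and 160 did not, and 16 changed sign without having been called. The called Fosl1 ratio from E13.5 to E15.5 moved most, from a log2 of 4.38 to 6.26 (thinned) or 5.39 (without the top 5%) in epithelium and from 2.97 to at least 1.35 (thinned to 0 UMIs at E13.5, no longer past the UMI minimum) or 2.33 (stricter tissue call) in mesenchyme, with 15 and 3 UMIs at E13.5. Removing haemoglobin-rich and immune cells, or genes not listed at all 4 stages, changed no call, and removing suprabasal epithelial cells added Atf3 between tissues at E14.5 and E15.5 and Junb in epithelium between E15.5 and P0. These 3 were chosen after seeing the data. Thinning left no ratio for Fosl1 between tissues at E13.5 and E14.5. No paired analysis was possible because each stage has 1 library and no replicate numbers are shared. Tissue ratios were taken within each library and were not tested over the 4 stages. E14.5 rests on 45 and 31 cells.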
